A study of Mus musculus with 4 samples.

Results

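Guanylate-binding proteins (GBPs) and immunity-related GTPases (IRGs) are interferon-induced enzymes of cell-autonomous defence, and 8 of their genes were examined across the leukocytes of the mouse nasal mucosa. The 8 genes were Gbp2, Gbp3, Gbp5 and Gbp7 of the GBPs and Irgm1, Irgm2, Igtp and Iigp1 of the IRGs, chosen by symbol as a readout of interferon gamma, and each symbol was found exactly 1 time among the 27998 genes of every library. The cells were leukocytes, recognised by their surface protein CD45 and taken from the nasal mucosa of 8-week-old C57BL/6 mice for droplet single-cell RNA sequencing. The sample labels name magnetic beads for this step and the description of the series names flow sorting. There were 4 groups with 1 library each. Vehicle mice received vehicle alone, Vehicle-OVA mice vehicle and ovalbumin (OVA, the allergen of the rhinitis model), Ribavirin mice the antiviral drug ribavirin, and Ribavirin-OVA mice ribavirin and OVA. The study's methods sensitize mice with OVA in the abdomen with an alum adjuvant and then challenge them through the nose. How many mice went into a library, and the dose and schedule of ribavirin, are not given in the sources used here. With 1 library per group no spread between mice could be estimated. All intervals below are 95% intervals of counting error only, and no difference between libraries was tested.

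Interferon gamma is made chiefly by NK cells and T cells. It binds the receptor chains Ifngr1 and Ifngr2, and activates the kinases Jak1 and Jak2, whose signal turns on target genes, among them Irf1, a transcription factor that acts on other targets in turn. GBPs are large GTPases that gather on the membranes around intracellular microbes and on cytosolic bacteria and promote inflammasome activation. IRGs fall into effectors such as Iigp1, which load onto pathogen vacuoles and break them, and regulators such as Irgm1, Irgm2 and Igtp, which sit on the cell's own membranes and keep the effectors inactive there. Type I interferons induce many of the same genes.

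To show what the genes share in their regulatory sequence, promoters were read from RefSeq (build GRCm38.p6). The 4 GBP genes lie on the plus strand of chromosome 3, within 142493978 to 142638008. Irgm1 lies on chromosome 11 (48861968 to 48871683, minus strand), and Igtp and Irgm2 lie further along the same chromosome, where Igtp (58199556 to 58207591) sits, apart from its first bases, inside the span that GENCODE annotates for Irgm2 (58199618 to 58222782, both on the plus strand). Igtp and Irgm2 share 162 exonic bases, of which 0 are in a last exon, where the 3′ counting of this assay reads. The interferon-stimulated response element, searched as GAAA, any 2 bases and GAAA on either strand, was found in the 250 bases before a start of 7 of the 7 genes read, against 3.46% of 27025 genes. By windows, it was in 7 of the 8 read, against 2.98% of 32851 windows of that length. The window without it, and without the next motif, belongs to another start of Gbp3 (chr3:142560106-142560355). The gamma-activated site, searched as TTC, any 3 bases and GAA, which reads the same on both strands, was found in 4 of the 7 genes, Gbp5, Gbp7, Irgm2 and Igtp, against 8.13% of genes. These 4 held both motifs in 1 window, as 0.4% of genes did. No match means only that these letters are not in the window. The 4 promoters below show a GBP with the response element alone (Gbp2), a GBP with both motifs (Gbp5) and the neighbours Igtp and Irgm2, with both kinds of match in capitals. A match is a description of the letters and not a measured binding site.
Gbp2 (chr3:142620413-142620662, plus strand) is the most abundant of the 8 in these cells.
Gbp2: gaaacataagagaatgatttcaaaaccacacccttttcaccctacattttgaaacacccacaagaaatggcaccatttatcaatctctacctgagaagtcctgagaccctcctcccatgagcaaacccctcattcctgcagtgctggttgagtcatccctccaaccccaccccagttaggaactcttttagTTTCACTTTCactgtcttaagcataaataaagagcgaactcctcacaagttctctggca
Gbp5 (chr3:142496684-142496933, plus strand) has 2 gamma-activated site matches around its response element.
Gbp5: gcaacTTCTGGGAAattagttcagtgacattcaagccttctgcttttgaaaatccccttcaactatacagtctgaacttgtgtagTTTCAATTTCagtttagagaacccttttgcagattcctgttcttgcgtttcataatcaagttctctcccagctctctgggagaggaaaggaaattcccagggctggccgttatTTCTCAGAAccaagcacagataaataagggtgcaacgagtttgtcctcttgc
Igtp (chr11:58199306-58199555, plus strand) and Irgm2 (chr11:58214727-58214976, plus strand) each carry a site match followed closely by a response element.
Igtp: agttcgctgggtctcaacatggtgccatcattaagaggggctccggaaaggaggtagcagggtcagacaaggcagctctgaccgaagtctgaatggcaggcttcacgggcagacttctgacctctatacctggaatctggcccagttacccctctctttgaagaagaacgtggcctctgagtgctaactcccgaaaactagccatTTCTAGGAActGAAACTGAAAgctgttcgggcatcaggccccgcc
Irgm2: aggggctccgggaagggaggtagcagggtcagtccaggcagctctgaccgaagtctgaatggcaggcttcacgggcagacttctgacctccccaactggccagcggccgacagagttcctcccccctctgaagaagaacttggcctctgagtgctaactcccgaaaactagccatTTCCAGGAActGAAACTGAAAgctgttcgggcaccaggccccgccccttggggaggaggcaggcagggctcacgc
Aligned with each other, the Igtp and Irgm2 windows were identical at 194 of 215 aligned bases (90.2%). The closest other match, Irgm1 with Irgm2, was 66.3%.

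The deposited libraries held 10311 to 28277 cells and 91742940 to 171873110 UMIs (unique molecular identifiers, which count captured molecules), and pairs of libraries shared 57 to 174 cell barcodes, at most 0.909% of the smaller library. Barcodes began at 1782 UMIs in Ribavirin but at 500 or 501 in the other libraries. Groups of 4 values follow the order Vehicle, then Vehicle-OVA, then Ribavirin, then Ribavirin-OVA, and in this order 24348, 17130, 19600 and 8760 cells remained after filters and doublet removal. Cells were clustered without the 8 genes, the rest of their family and all interferon genes listed here, which gave 45 clusters. They were named into 15 classes from marker genes, and 6 clusters stayed unnamed. A class name stands for cells that resemble that type by its markers. 11 classes held at least 50 cells in every library and were compared. Levels are given in CPM, the UMIs of a gene summed over the cells of a class in a library and scaled to 1000000 UMIs of that class. Since UMIs count 3′ ends of molecules, levels of different genes were set side by side without scaling for length.

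To find which cells carried the GTPase transcripts, the UMIs of the 8 genes were summed. Neutrophils had the highest summed level of the 11 classes in every library, with 1839.6, 942, 1238 and 757 CPM. In Vehicle this was 1.91-fold the level of the next class, the monocytes, and in Ribavirin-OVA 1.06-fold that of the next, the T cells, and in each library the interval of this ratio lay above 1. The unnamed cluster 1, led by Siglecf, a gene of eosinophils, was not counted as neutrophils, although the 16 neutrophil markers summed to 68524, 30889.7, 74339.7 and 29154 CPM in it, against 119146, 87914, 147995 and 123991 CPM in the named neutrophils. The 9 eosinophil markers summed to 641, 942, 622 and 724 CPM in it and 113, 45.3, 70.1 and 110.5 CPM in neutrophils. Only 5, 2, 5 and 4 of these markers had UMIs in the cluster, against 7, 6, 8 and 7 in neutrophils. Epx, Prg3, Ear1 and Ear6 were at 0 in the cluster in every library, so its sum does not show that these cells were eosinophils. With this cluster counted as neutrophils the summed level became 1270.1, 928, 1018 and 705 CPM, still the highest in 3 libraries but below T cells in Ribavirin-OVA. This count was added after the data had been seen. Monocytes (965, 748, 854 and 556 CPM) and macrophages (777, 570.1, 733 and 581 CPM) were the next 2 without OVA. T cells (367, 638, 389.9 and 714 CPM) held rank 6 in Vehicle and Ribavirin, rank 3 in Vehicle-OVA and rank 2 in Ribavirin-OVA. The lowest places belonged to plasma cells (129, 291, 146 and 278 CPM), plasmacytoid dendritic cells (138, 279, 155 and 233 CPM) and, in Vehicle-OVA, B cells (260.2, 161, 233 and 314 CPM). Of the 40 neighbouring steps in the order of classes (10 per library), 25 exceeded counting error. The steps between group 2 innate lymphoid cells and T cells in Vehicle, and between T cells and epithelial cells in Vehicle-OVA, were among those that did not.

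**Figure D1:**
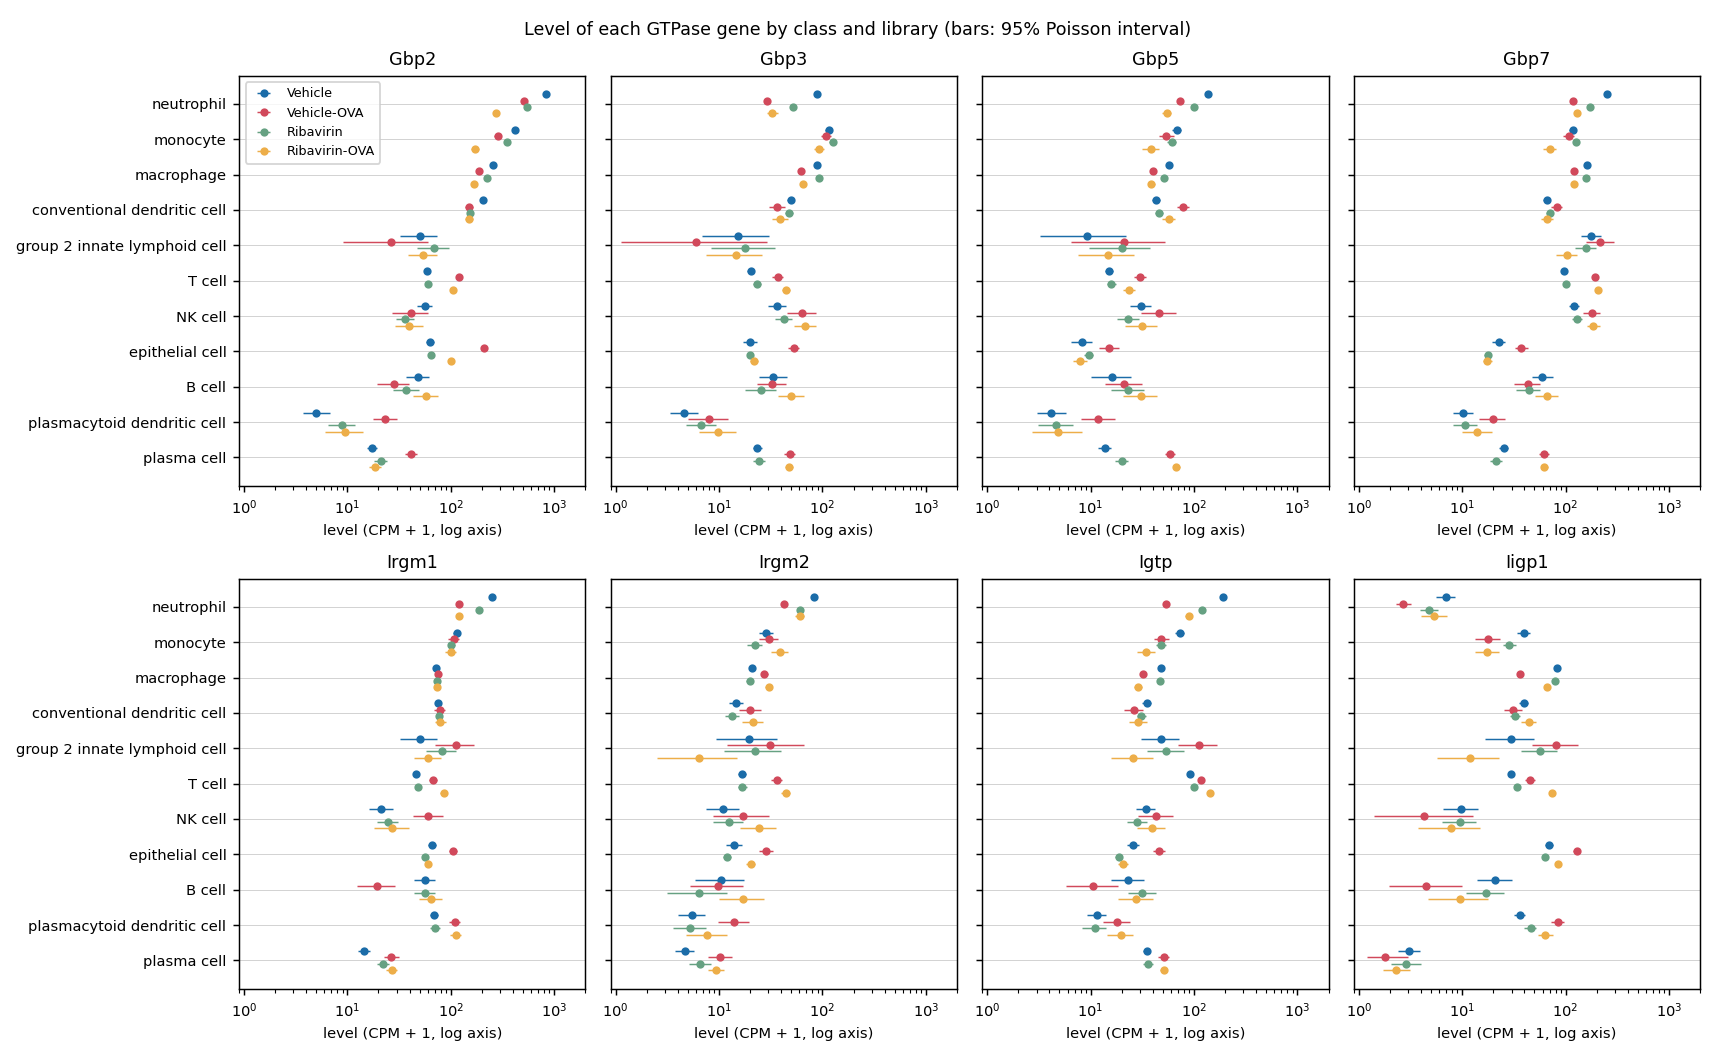
Level of each of the 8 genes (CPM + 1, log axis) in 11 classes, with 1 point per library in its colour and a bar for the 95% Poisson interval. Gbp2 runs from 4.02 CPM in plasmacytoid dendritic cells to 838 CPM in neutrophils of Vehicle, whereas Iigp1 lies near the bottom in neutrophils and plasma cells.

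Among the GBPs, Gbp2 was the most abundant in neutrophils, monocytes, macrophages and conventional dendritic cells. Its level in neutrophils was 838, 509, 548 and 274 CPM and in monocytes 417, 282, 349 and 171 CPM, and these were its highest classes in every library, although in Ribavirin-OVA monocytes and macrophages (167 CPM) differed by less than counting error. Plasmacytoid dendritic cells had the least Gbp2, at 4.02, 22.2, 7.82 and 8.42 CPM. Gbp3 was highest in monocytes in all 4 libraries, at 114, 108, 125 and 91.8 CPM, with neutrophils at 88.3, 28.4, 51 and 31.8 CPM. Gbp5, which promotes assembly of the NLRP3 inflammasome, had a different leading class in OVA libraries. It was highest in neutrophils of Vehicle and Ribavirin (135 and 99.1 CPM), in conventional dendritic cells of Vehicle-OVA (77.5 CPM against 71.7 in neutrophils) and in plasma cells of Ribavirin-OVA (66.6 CPM against 53.5). Gbp7 was the main GBP of lymphocytes. It reached 96.2, 193, 99.8 and 204 CPM in T cells, 119, 178, 128 and 185 CPM in NK cells and 177, 216, 157 and 101 CPM in group 2 innate lymphoid cells, which held only 65 to 167 cells per library, against 249, 117, 172 and 129 CPM in neutrophils.

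Among the regulatory IRGs, Irgm1 and Irgm2 were highest in neutrophils in all 4 libraries. As regulators they protect the cell's own membranes. Irgm1 stood in neutrophils at 250.5, 120.2, 186 and 118 CPM and Irgm2 at 81.7, 41.6, 59.7 and 59.2 CPM. The next class for Irgm1 was the monocytes without OVA (113 and 100.3 CPM), group 2 innate lymphoid cells in Vehicle-OVA (111 CPM, with plasmacytoid dendritic cells at 108) and plasmacytoid dendritic cells in Ribavirin-OVA (111 CPM). In both OVA libraries the lead of neutrophils over the next class was within counting error. Igtp was highest in neutrophils of Vehicle and Ribavirin (191 and 118 CPM) and in T cells of Vehicle-OVA and Ribavirin-OVA (116 and 141 CPM).

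The effector Iigp1 (chromosome 18, 60376027 to 60392634, plus strand, sequence not printed here) had levels that ran apart from those of the other 7 genes. In neutrophils it stood at 5.94, 1.69, 3.83 and 4.37 CPM and in plasma cells at 2.04, 0.783, 1.86 and 1.28 CPM, which were its lowest classes together with NK cells (8.79, 3.23, 8.48 and 6.8 CPM). Of the compared classes, macrophages (81.6, 35.4, 78.3 and 64.9 CPM) led in Vehicle and Ribavirin and epithelial cells (68.4, 127, 62.8 and 84.1 CPM) in both OVA libraries, and plasmacytoid dendritic cells, which were poor in GBPs, held 35.1, 83, 44.8 and 62.8 CPM. Over the 44 points of 11 classes in 4 libraries, the log2 level of Iigp1 had a Pearson r of -0.06 with the mean of the other 7 genes, whereas each other gene had an r between 0.54 (Irgm1) and 0.86 (Gbp2) with the mean of its own other 7. These points share libraries and classes, and the values are descriptions. After the mean of each class over the libraries had been subtracted, the r of Iigp1 was 0.46 and that of the others 0.61 to 0.87.

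The make-up of the GTPase transcripts differed between classes in the same way. Gbp2 made up 45.6, 54, 44.3 and 36.2% of the summed UMIs of the 8 genes in neutrophils but 2.92, 7.93, 5.03 and 3.62% in plasmacytoid dendritic cells. There, Irgm1 (49.2, 38.6, 44.8 and 47.6%) and Iigp1 (25.5, 29.7, 28.8 and 26.9%) made up most of the sum. Gbp7 was the largest part in NK cells (38.2, 39.7, 43.1 and 44.5%), and in T cells Gbp7 (26.3, 30.2, 25.6 and 28.5%) stood beside Igtp (24.5, 18.1, 25.2 and 19.7%). In epithelial cells Iigp1 gave 24.4, 20.6, 24.8 and 25.8% and Gbp2 22.1, 34.1, 24.9 and 30.6%. In plasma cells Gbp5 gave 9.83, 19.8, 13 and 24%, the larger shares in both OVA libraries.

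Of the 45 clusters, the 3 with the highest summed level over the 4 libraries were cluster 0 of the neutrophils, led by Mmp9 and Cxcr2 (1900.8 CPM, 1880.3 to 1921), the endothelial cells of cluster 39 (1640.1 CPM, 1584 to 1697) and the stromal cells of cluster 37 (1477 CPM, 1421 to 1534). Within single libraries the order differed. Among clusters with at least 50 cells in a library, cluster 0 ranked 1 in Vehicle (2344 CPM) and Vehicle-OVA (1484 CPM) and 2 in Ribavirin (1885 CPM, below the stromal cells at 1927) and Ribavirin-OVA (1242 CPM, below the macrophages of cluster 3 at 1639.6). Clusters of fewer cells lay above it in Vehicle, Vehicle-OVA and Ribavirin-OVA, such as neutrophil cluster 21 with 4701 CPM from 31 cells in Vehicle. Endothelial and stromal cells are not leukocytes, and here they were few, with 26, 12, 63 and 38 endothelial and 27, 32, 65 and 36 stromal cells, too few to be compared. Fabp7, a gene of glia, was also among the leading genes of the stromal cluster beside Col1a1 and Col1a2. In endothelial cells Iigp1 stood at 1017, 513, 607 and 534 CPM and in stromal cells at 669, 163, 681 and 351 CPM. The endothelial value of Vehicle, 1017 CPM (911 to 1131), came from 26 cells. Each of these values was above the level of Iigp1 in all compared classes of the same library. The unnamed cluster 14, led by Tnfrsf4 and by Foxp3, the transcription factor of regulatory T cells, had a summed level of 952, 782, 1054 and 692 CPM, near that of monocytes or above it. Iigp1 (155, 70.3, 185 and 82.4 CPM) and Igtp (188, 130.0, 216 and 109 CPM) were both higher in it than in T cells in all 4 libraries except Igtp in Ribavirin-OVA, where T cells had 141 CPM. The unnamed cluster 1, led by Siglecf and Ltc4s, had 452, 456, 372 and 412 CPM from 2649, 341, 1598 and 457 cells.

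Clusters of one class could differ as much as classes did. Among the 8 neutrophil clusters the summed level over the libraries ran from 1900.8 CPM in cluster 0 down to 209 CPM (197 to 221) in cluster 22 and 129 CPM (111 to 149) in cluster 44, both led by Ngp and Camp, granule genes of immature neutrophils. Gbp2 stood at 832, 62.1 and 33.6 CPM in these 3 clusters. Among conventional dendritic cells, cluster 29, led by Fscn1 and Ccr7, genes of dendritic cells that migrate to lymph nodes, had a summed level of 512 CPM (488 to 538) and cluster 12, led by Cd209a and Ccl17, 487 CPM (479 to 496). The 2 differed in make-up, with Gbp5 at 157 CPM in cluster 29 and 35.1 in cluster 12, and Gbp7 at 22.8 and 73.6 CPM. Cells were not clustered on any of these GTPases.

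To see which cells supplied the transcripts of a whole library, the UMIs were divided by class. Neutrophils were 18.1, 62.1, 25.3 and 24.5% of the cells and supplied 23.2, 50.5, 24.2 and 14.2% of the UMIs of the 8 genes. Macrophages were 19, 15.8, 16.7 and 21.5% of the cells and supplied 35.5, 22.1, 28.6 and 25.6%. In Vehicle-OVA neutrophils gave the largest part, and in the other 3 libraries macrophages did. Iigp1 had other sources. Macrophages supplied 49.1, 32, 33 and 25.6% of its UMIs, epithelial cells 7.73, 24.1, 26.9 and 32.9% from 1.5, 0.987, 4.56 and 4.27% of the cells, and endothelial cells 4.84, 6.48, 5.4 and 7.15% from 0.107, 0.0701, 0.321 and 0.434% of the cells. Neutrophils supplied 0.985, 2.11, 0.808 and 0.739%.

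**Figure D2:**
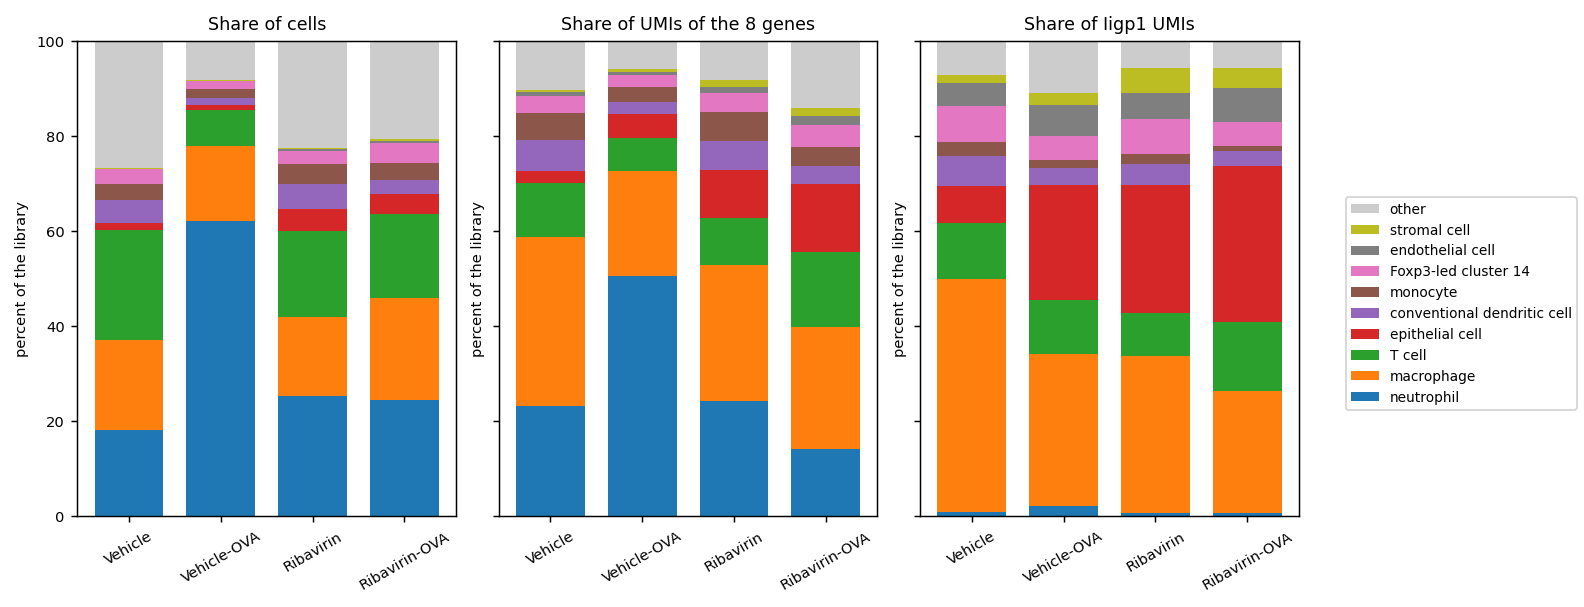
Percent of the cells (left), of the UMIs of the 8 genes (middle) and of Iigp1 UMIs (right) that came from each class, with 1 stacked bar per library. Neutrophils supplied 50.5% of the UMIs of the 8 genes in Vehicle-OVA but 2.11% of its Iigp1 UMIs.

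The share of cells with at least 1 UMI of any of the 8 genes was taken after each cell had been thinned to 1000 UMIs, leaving out shallower cells, of which there were 626, 970, 0 and 510. It was 55.6, 36.3, 46.4 and 32.9% in neutrophils and 46, 32.6, 43.2 and 31.4% in macrophages. T cells had 28, 38, 28.7 and 40.3% and NK cells 22.6, 40.8, 24.1 and 37.7%. In the Foxp3-led cluster it was 51.2, 43.9, 53.5 and 45.8%. Olfactory neurons, which should hold little of these genes, had 4.72, 15.8, 6.27 and 3.06%, the lowest share in each library but Vehicle-OVA, where B cells had 14.3% and only 21 olfactory neurons were found. Plasma cells (11.6, 23.5, 14.5 and 20.5%) and plasmacytoid dendritic cells (11.3, 22.4, 12.8 and 19.7%) lay above olfactory neurons in every library. Unthinned, the shares were 69.8, 55.4, 66.6 and 52.2% in neutrophils, with median depths of 2085, 2866, 2654 and 2962 UMIs, and 17.8, 52.4, 18.2 and 19.3% in olfactory neurons, with median depths of 6374, 9534, 8243 and 10685 UMIs.

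To ask how the GTPases stood in mice given OVA, each OVA library was set against the library without OVA under the same treatment. A combination of gene and class was counted when its ratio passed 2-fold (with a pseudocount of 1 CPM added to each level), provided that the class held at least 50 UMIs of the gene over the libraries. This held for 84 of the 88 combinations of 8 genes and 11 classes. The 4 others were Irgm2 in B cells and Gbp3, Gbp5 and Irgm2 in group 2 innate lymphoid cells. In Vehicle-OVA over Vehicle, 18 of the 84 were at least 2-fold higher (21.4%, against 13.5% of all 109373 combinations of gene and class) and 11 at least 2-fold lower (13.1% against 4.67%). In Ribavirin-OVA over Ribavirin, 5 were higher (5.95% against 11.0%) and 3 lower (3.57% against 2.8%). The split depended on the scaling. Relative to the median of all genes in the class, 7 were higher (8.33% against 5.55%) and 12 lower (14.3% against 8.15%) in the Vehicle pair, and 3 higher (3.57% against 3.14%) and 10 lower (11.9% against 6.77%) in the ribavirin pair. With doublets kept, 8 of 85 were higher in the Vehicle pair (9.41% against 12.6%) and 12 in the ribavirin pair (14.1% against 10.8%). As summed without either change, the higher ones of the Vehicle pair lay in plasma cells (5), plasmacytoid dendritic cells (4), epithelial cells (3), group 2 innate lymphoid cells (3), T cells (2) and NK cells (1), and the lower ones in neutrophils (5), B cells (3), macrophages (1), monocytes (1) and NK cells (1). The median log2 ratio of the 84 was 0.37 in the Vehicle pair, where that of all combinations was 0.31, and 0.13 in the ribavirin pair, where it was 0.36. The median of all genes was itself above 0 with OVA in 10 of the 11 classes in the Vehicle pair and in all 11 in the ribavirin pair. Ribosomal protein genes took a smaller share of the UMIs at the same time, for example 25% in T cells of Vehicle and 13.2% in Vehicle-OVA. Their part in the ratios was not tested, so summed ratios are also given relative to the median of all genes in the class.

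**Figure D3:**
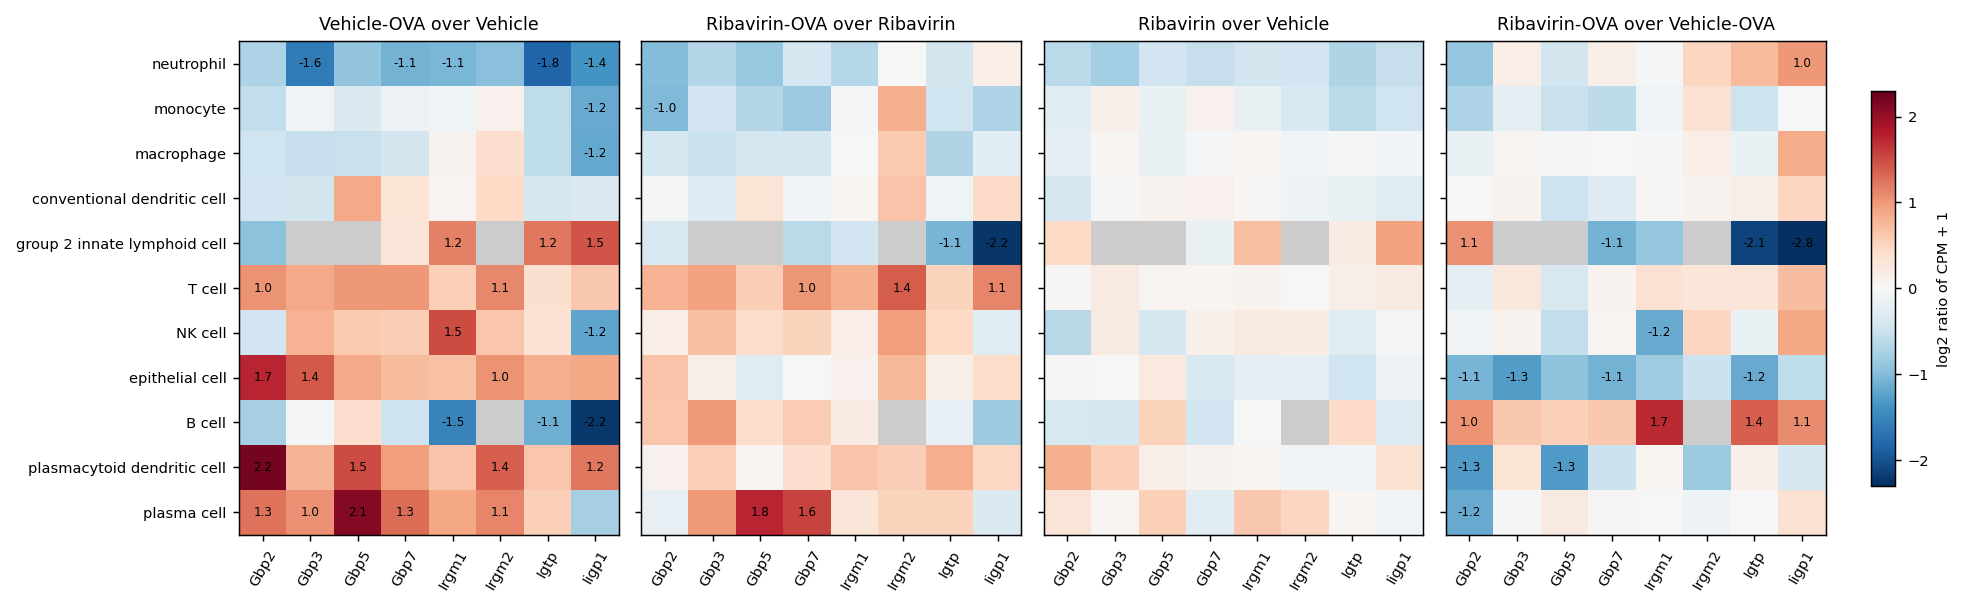
Log2 ratio (CPM + 1) of each gene in each class for the 4 pairs of libraries, blue for lower and red for higher, with the value written where it is past 2-fold and grey where the class held under 50 UMIs of the gene. With OVA the neutrophils (top line) are mostly blue and the T cells red, and Ribavirin over Vehicle has 0 values past 2-fold.

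In neutrophils the GTPases were lower with OVA in both pairs. The summed level in Vehicle-OVA was 0.512 (0.503 to 0.521) times that of Vehicle and in Ribavirin-OVA 0.611 (0.594 to 0.629) times that of Ribavirin. With the Siglecf-led cluster counted as neutrophils the ratios were 0.731 (0.719 to 0.743) and 0.693 (0.674 to 0.712). In the Vehicle pair all 8 genes were lower, from 0.607 (0.593 to 0.623) for Gbp2 to 0.275 (0.258 to 0.292) for Igtp, whose level was 191 CPM in Vehicle and 52.4 in Vehicle-OVA. In the ribavirin pair Gbp2 was lowest, at 0.499 (0.476 to 0.523), whereas Irgm2 had a ratio of 0.991 (0.885 to 1.11) and the scarce Iigp1 1.14 (0.73 to 1.76), both with intervals that include 1. The median of all genes in neutrophils was -0.36 in log2 in the Vehicle pair and 0.43 in the ribavirin pair, and relative to it the summed log2 ratios of -0.97 and -0.71 became -0.60 and -1.14. Different clusters held most neutrophils in the 2 groups. Cluster 0 held 2724 of the 4409 neutrophils of Vehicle, and clusters 4, 6 and 11, led by Hspa1b, Csf3 and Retnlg, held 3280, 3589 and 2376 of the 10633 of Vehicle-OVA. Within cluster 0 the summed level was 2344, 1484, 1885 and 1242 CPM, 0.633-fold (0.612 to 0.654) and 0.659-fold (0.633 to 0.686) with OVA. In cluster 4 it was 825 and 833 CPM in the Vehicle pair, a ratio of 1.01 (0.911 to 1.12). Of the neutrophil clusters with at least 50 cells in both libraries, 4 of 5 were lower beyond counting error in the Vehicle pair and 5 of 6 in the ribavirin pair, and 0 were higher.

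In T cells all 8 genes were higher with OVA in both pairs. The summed level was 1.74 (1.68 to 1.8) times as high in the Vehicle pair and 1.83 (1.77 to 1.89) times in the ribavirin pair, or 0.42 and 0.50 in log2 relative to the median of all genes. Irgm2 had the highest ratio in each pair, 2.23 (1.9 to 2.6) and 2.73 (2.36 to 3.17), with levels of 15.8, 35.3, 15.8 and 43.2 CPM. Gbp7, the most abundant in these cells, was 2.01 and 2.04 times as high. Iigp1 differed between the pairs, at 1.55 (1.35 to 1.76) and 2.21 (1.99 to 2.47), with 28.5, 44.1, 32.9 and 72.8 CPM. The 4 T cell clusters that could be compared, 2, 8, 10 and 20, were each higher with OVA, by 1.5 to 1.57-fold in the Vehicle pair and 1.62 to 1.91-fold in the ribavirin pair. In the Foxp3-led cluster, by contrast, the summed level was lower in both pairs, at 0.821 (0.773 to 0.873) and 0.657 (0.621 to 0.695), with Iigp1 at 0.453 and 0.445.

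Plasma cells, the antibody-secreting cells, had low levels without OVA and higher ones with it. The summed ratio was 2.26 (2.11 to 2.43) in the Vehicle pair and 1.9 (1.78 to 2.03) in the ribavirin pair, and relative to all genes the log2 ratios were 0.68 and 0.45. Gbp5 led in both, at 12.6, 57.7, 19 and 66.6 CPM, with ratios of 4.56 (3.79 to 5.51) and 3.51 (2.96 to 4.18). Gbp7 was 2.49 and 3.03 times as high and Gbp3 2.11 and 2.0. Gbp2 differed between the pairs, at 2.47 (2.04 to 2.99) and 0.873 (0.707 to 1.08), and was the only one of the 8 besides the scarce Iigp1 that was not higher in the ribavirin pair. Cluster 23 held most plasma cells of the OVA libraries and cluster 16 most of the others. Within cluster 28, led by cell cycle genes, the summed level was 126, 200.4, 145 and 251 CPM, from 131, 44, 70 and 163 cells.

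Plasmacytoid dendritic cells, the main producers of type I interferon, had a summed ratio of 2.03 (1.83 to 2.24) and 1.5 (1.34 to 1.68). Their main GTPases, Irgm1 and Iigp1, were higher in both pairs, Irgm1 at 1.59 and 1.59 times and Iigp1 at 2.37 and 1.4 times. NK cells had 1.44 (1.25 to 1.65) and 1.39 (1.24 to 1.57), with Gbp3 (1.77 and 1.62) and Gbp7 (1.49 and 1.44) higher in both, and Irgm1 at 2.93 (1.87 to 4.57) in the Vehicle pair against 1.11 (0.681 to 1.77) in the ribavirin pair. Only 101 NK cells were in Vehicle-OVA.

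In monocytes the summed level was lower with OVA in both pairs, at 0.776 (0.737 to 0.817) and 0.651 (0.615 to 0.689), with Gbp2 at 0.678 and 0.491. Irgm2 was the exception, at 1.07 (0.806 to 1.41) and 1.79 (1.37 to 2.33). With doublets left in, the monocyte ratios turned to 0.75 and 1.11 in log2, and the direction turned in 2 and 1 of the 7 settings that gave a monocyte class. In macrophages the ratios were 0.734 (0.72 to 0.749) and 0.793 (0.775 to 0.811). Iigp1 was 0.434 (0.402 to 0.467) and 0.829 (0.773 to 0.889) times as high, Irgm1 near the same (1.05 and 0.993) and Irgm2 higher (1.32 and 1.55). Different clusters again held the class. Most macrophages without OVA were in clusters 3 and 7 and most with OVA in cluster 9. Within cluster 3 the sum was higher with OVA, at 815 and 1009 CPM in the Vehicle pair and 823 and 1639.6 CPM in the ribavirin pair, the last from 95 cells, while cluster 7 had ratios of 0.982 (0.922 to 1.05) and 0.731 (0.68 to 0.785). Under another rule for naming clusters the class ratios turned to 0.18 and 0.23 in log2. As a class, conventional dendritic cells differed little, with summed ratios of 0.957 (0.905 to 1.01) and 1.03 (0.974 to 1.09), yet Gbp5 was 1.84 (1.58 to 2.15) and 1.25 (1.05 to 1.49) times as high in them. Their 2 clusters went opposite ways beyond counting error in the Vehicle pair, cluster 12 at 0.869 and cluster 29 at 1.35. The Gbp5-rich cluster 29 held 185 of the 1205 cells in Vehicle and 58 of the 284 in Vehicle-OVA. The part of this in the Gbp5 ratio was not tested.

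Epithelial cells, a small fraction in this CD45+ preparation, had all 8 genes higher in the Vehicle pair, with a sum of 2.2 (2.08 to 2.32) and Gbp2 at 3.39 (3.05 to 3.78) (62.1 and 211 CPM). The 16 neutrophil markers summed to 9778, 22120.1, 10368 and 11573 CPM in epithelial cells, more than in any other compared class apart from neutrophils, and were higher in the same pair. Whether this RNA came from neutrophils or was made in the epithelial cells was not tested. When the GTPase UMIs that neutrophil RNA could carry were subtracted, as described below for other classes, the ratios were 2.33 for the sum and 3.93 for Gbp2. In the ribavirin pair the sum was 1.28 (1.24 to 1.33), or -0.15 in log2 once the median of all genes was subtracted, and clustering the libraries separately gave -0.35. Within cluster 24, the only epithelial cluster with at least 50 cells in each library of the Vehicle pair, the ratio was 1.62. In the ribavirin pair 3 epithelial clusters could be compared, with ratios from 0.587 to 1.07. Of these, 1 was higher and 2 were lower beyond counting error. B cells and group 2 innate lymphoid cells went opposite ways in the 2 pairs. The B cell sum was 0.619 (0.514 to 0.744) and 1.35 (1.15 to 1.59). Macrophage markers (12 genes) in B cells summed to 4579.8, 1187, 1975 and 942 CPM and neutrophil markers to 793, 3238, 1426 and 835 CPM, and after subtraction of neutrophil RNA the sum was at 0.512 and 1.39. The part of macrophage RNA was not tested. The sum of group 2 innate lymphoid cells was 1.53 (1.2 to 1.93) and 0.599 (0.493 to 0.727). It rested on 65 to 167 cells per library, and under another naming rule the Vehicle pair gave -0.20 in log2.

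**Figure D4:**
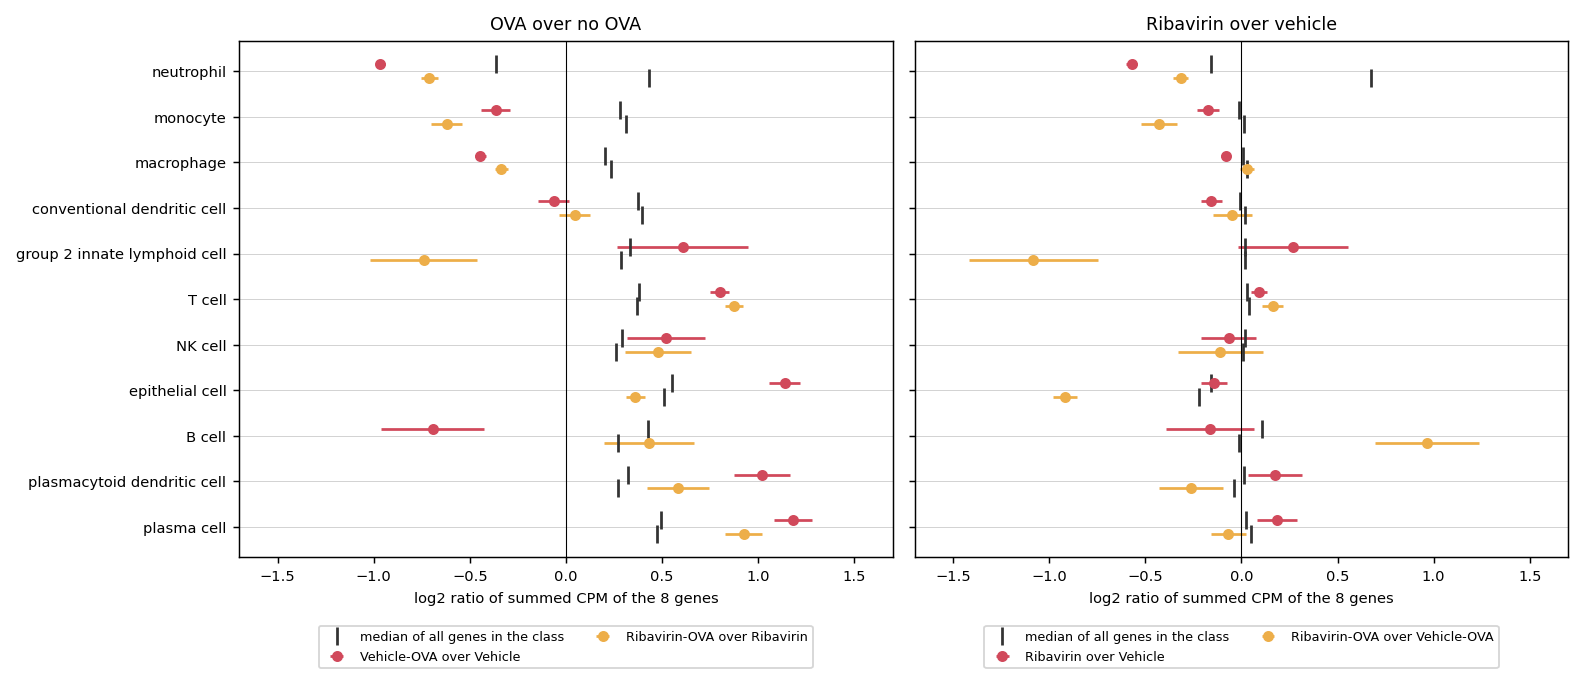
Log2 ratio of the summed CPM of the 8 genes in 11 classes, with 95% counting intervals, for OVA over no OVA (left) and ribavirin over vehicle (right). Black ticks mark the median of all genes in the class. With OVA, neutrophils lie left of their ticks and T cells, plasma cells and plasmacytoid dendritic cells right of theirs in both pairs.

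Over all cells of a library, as summed UMIs, the 2 pairs went opposite ways, but with classes weighted equally both were higher with OVA. The summed level was 612, 696, 543 and 492 CPM, a ratio of 1.14 (1.13 to 1.15) in the Vehicle pair and 0.907 (0.897 to 0.918) in the ribavirin pair. In log2 these were 0.18 and -0.14, against 0.25 and 0.12 with equal class weights and 0.020 and -0.24 as the mean of single-cell CPM. In the Vehicle pair the level over all cells was higher with OVA although neutrophils, macrophages and monocytes were each lower, while the neutrophil share was 18.1% and 62.1%. With neutrophils left out the ratios were 1.08 (1.06 to 1.09) and 1.01 (0.999 to 1.02).

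Neutrophil markers were measured in the other classes, since neutrophils were the richest in GTPases and their share differed most. The summed level of 16 such markers in T cells was 663 CPM in Vehicle and 3035 in Vehicle-OVA, 984 in Ribavirin and 609 in Ribavirin-OVA. Macrophage markers summed to 5948, 2836, 5719 and 2399 CPM in monocytes, lower with OVA as the GTPases were, and in compared classes other than macrophages, monocytes and B cells to between 228 and 1161 CPM. Their part was not tested. All 16 neutrophil markers had UMIs in T cells and in plasma cells of each library, and at least 14 of them in the other compared classes, where Ly6g was at 0 in B cells of all 4 libraries. To estimate what such RNA could add, all S100a8 and S100a9 UMIs of a class were taken as neutrophil RNA. The GTPase UMIs that would come with them, at the ratio of neutrophils, were subtracted. Neutrophil clusters ran from 129 to 1900.8 CPM of the 8 genes, so RNA from some neutrophils could carry more. The subtraction is therefore not an upper limit, and the cause of the ratios was not tested. After this the summed ratios were 1.7 and 1.86 in T cells, 2.25 and 1.99 in plasma cells, 1.99 and 1.53 in plasmacytoid dendritic cells and 1.36 and 1.44 in NK cells. Gbp2 of plasmacytoid dendritic cells, 5.51 (3.43 to 9.02) times as high in the Vehicle pair, had nothing left in Vehicle after the subtraction, and Gbp5 of plasma cells kept 4.67 and 3.62.

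To ask how ribavirin mice differed, the 2 pairs at equal OVA state were examined. They share their libraries with the OVA pairs and are not independent of them. In Ribavirin over Vehicle 0 of the 84 combinations were at least 2-fold higher (against 1.16% of all combinations) and 0 at least 2-fold lower (against 0.508%), and relative to the median of all genes also 0 and 0 (against 1.17% and 0.463%). At 1.5-fold there were 4 and 5 of the 84, for which no share of all combinations was taken. The largest difference in a summed level was that of neutrophils, 0.673 (0.66 to 0.686), where each of the 8 genes was lower, from 0.577 (0.526 to 0.633) for Gbp3 to 0.744 (0.707 to 0.783) for Irgm1. With the Siglecf-led cluster counted as neutrophils it was 0.802 (0.787 to 0.816). Cluster 0 held 2724 of 4409 neutrophils in Vehicle and 1501 of 4952 in Ribavirin. Of 5 neutrophil clusters compared, 3 were lower beyond counting error and 0 higher, with ratios from 0.697 to 1.08. Barcodes of Ribavirin began at 1782 UMIs, and neutrophils of Vehicle had a median of 2085. The part of clusters and depth was not tested. T cells were at 1.06 (1.03 to 1.09), macrophages at 0.944 (0.929 to 0.96) and plasma cells at 1.14 (1.06 to 1.22).

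In Ribavirin-OVA over Vehicle-OVA 6 combinations were at least 2-fold higher (7.14% against 4.43%) and 11 at least 2-fold lower (13.1% against 2.61%). Once the class median had been subtracted, 5 were higher (5.95% against 2.25%) and 10 lower (11.9% against 3.07%). Neutrophils again had a lower sum, 0.803 (0.781 to 0.826), but their genes went different ways. Gbp2 was 0.538 (0.514 to 0.562) and Gbp5 0.746 times as high, whereas Igtp was 1.67 (1.53 to 1.83), Irgm2 1.42 and the scarce Iigp1 2.59 (1.65 to 4.03) times as high. The median of all genes in neutrophils was 0.68 in log2 in this pair. The 2 libraries held the neutrophil clusters in different proportions. Cluster 0 held 1058 of 10633 neutrophils in Vehicle-OVA and 899 of 2145 in Ribavirin-OVA, and cluster 6 held 3589 and 56. Over the 4 libraries, Igtp stood at 204 CPM in cluster 0 and 41.7 in cluster 6, and Gbp2 at 832 and 669. Of 6 clusters compared, 4 had a lower sum beyond counting error and 0 a higher one. The part of clusters in these ratios was not tested. Epithelial cells had all 8 genes lower, with a sum of 0.528 (0.506 to 0.552) and a range from 0.401 for Gbp3 to 0.696 for Irgm2, beside a median of all genes of -0.22 in log2. The neutrophil markers of epithelial cells were lower in the same pair (11573 against 22120.1 CPM). With S100a8 and S100a9 taken as neutrophil RNA, the sum after subtraction was at 0.544. Group 2 innate lymphoid cells had 0.472 (0.375 to 0.596) and B cells 1.95 (1.62 to 2.36), with Irgm1 at 3.42 (2.04 to 5.92) in the latter (18.4 and 62.8 CPM). In macrophages the sum was at 1.02 (0.994 to 1.05) and Iigp1 was 1.83 (1.68 to 2.0) times as high. In T cells Iigp1 was also higher, at 1.65 (1.44 to 1.89), and Gbp2 lower, at 0.866 (0.788 to 0.951).

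To set the GTPases beside the pathway that induces them, the genes of interferon gamma production and signalling were examined. Ifng was found in NK cells, at 266, 107, 270.0 and 218 CPM, in T cells, at 177, 172, 175 and 205 CPM, and in the Foxp3-led cluster, at 61.8, 20.6, 43 and 36.7 CPM. In T cells the level thus stayed within 172 to 205 CPM, while NK cells of Vehicle-OVA had 107 CPM. Over all cells Ifng stood at 41.4, 15.3, 31 and 27.9 CPM. Tbx21, the transcription factor that drives Ifng, was 119, 121, 123 and 177 CPM in NK cells and 21.3, 41.6, 21.1 and 49.2 CPM in T cells, higher in T cells with OVA. Of the cytokines that induce Ifng, Il12b was highest in conventional dendritic cells (46.7, 14.4, 49.7 and 32.4 CPM), Il18 in monocytes (36.9, 21.7, 30.8 and 15.1 CPM) and Il27 in monocytes too (12.8, 8.32, 15 and 13.4 CPM), and Il12a in plasmacytoid dendritic cells and B cells (36.2, 71.7, 48.8 and 23.2 and 25.4, 24.5, 73.4 and 38.3 CPM). Il12b in conventional dendritic cells and Il18 in monocytes were lower in both OVA libraries than without OVA.

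The receptor chains were divided between the classes. Ifngr1 was highest in NK cells (1006, 1181, 1091 and 1061 CPM) and reached 547, 939.8, 539 and 1014 CPM in T cells, whereas Ifngr2 was 7.99, 4.85, 7.38 and 8.74 CPM in NK cells and 16.5, 30.5, 14.2 and 22.8 CPM in T cells but 187, 206, 186 and 213 CPM in macrophages and 154, 159, 119 and 170.1 CPM in neutrophils. Plasma cells had little of either, at 25.3, 31.9, 24.5 and 31.3 CPM of Ifngr1 and 13.4, 24.3, 15.6 and 15.4 CPM of Ifngr2. In neutrophils, where the GTPases were lower with OVA, Irf1 stood at 739, 380.1, 609 and 492 CPM, lower in both pairs. In T cells, where the GTPases were higher, Irf1 was 141, 212, 153 and 198 CPM, higher in both pairs. Stat2 and Irf9, transcription factors of the type I interferon response, were 18.3, 44.2, 24.3 and 51.5 and 52.3, 78.7, 52.4 and 94.4 CPM in T cells and 54.9, 62.3, 48.5 and 74.2 and 141, 150.4, 133 and 143 CPM in neutrophils. The receptor kinases differed in where they stood highest, Jak1 in NK cells (967, 1039, 1069 and 1101 CPM, with T cells at 378, 596, 369 and 564) and Jak2 in conventional dendritic cells (269, 688, 305 and 605 CPM, with neutrophils at 326, 469, 277 and 395), apart from Vehicle, where neutrophils had the most Jak2. Irf8 was highest in plasmacytoid dendritic cells, at 2705, 3655, 2677 and 3825 CPM. Socs1, the feedback inhibitor of the receptor, was 10.1, 82.2, 20.6 and 43.5 CPM in plasma cells and 92.4, 82.6, 87.8 and 68.8 CPM in neutrophils.

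**Figure D5:**
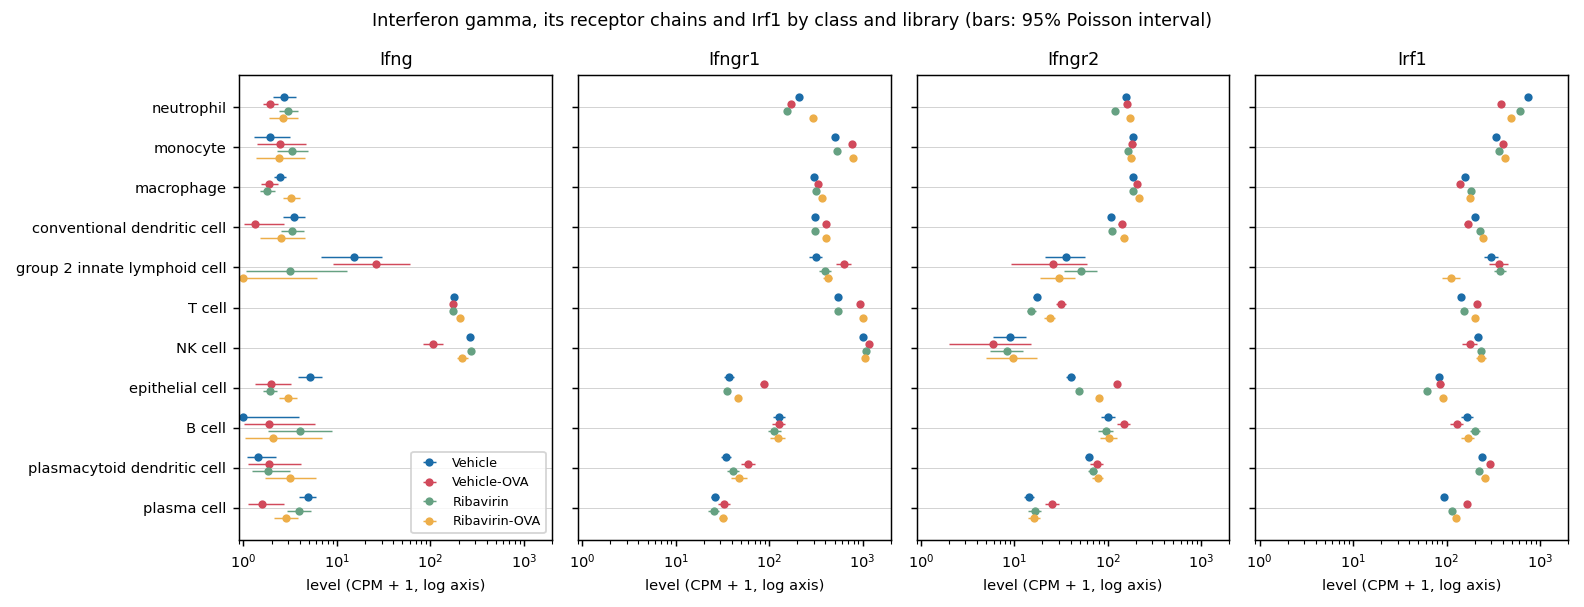
Levels of Ifng, the receptor chains Ifngr1 and Ifngr2, and Irf1 (CPM + 1, log axis) by class, with 1 point per library and its 95% Poisson interval. Ifng is found in T cells and NK cells, which have the most Ifngr1 and little Ifngr2, and Irf1 of neutrophils spans 380.1 to 739 CPM.

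Counted over the 11 classes by the same 2-fold rule, 13.5% of all combinations were higher and 4.67% lower in the Vehicle pair, and 11.0% and 2.8% in the ribavirin pair. The 8 ligand, inducer and receptor genes had 4 higher and 9 lower of 49 (8.16% and 18.4%) in the Vehicle pair and 1 higher and 5 lower of 49 (2.04% and 10.2%) in the ribavirin pair. The other GBP and IRG genes, of which 14 of 17 symbols were found, had 7 higher and 14 lower of 88 (7.95% and 15.9%) and 9 higher and 5 lower of 88 (10.2% and 5.68%), with median log2 ratios of -0.01 and -0.05. The 3 with the most UMIs were Ifi47, Gbp4 and Gbp9. Like the sum of the 8, Gbp4 was higher with OVA in T cells (67.3, 141, 81.7 and 188 CPM). In neutrophils Gbp4 was lower in the Vehicle pair (17.3 and 5.29 CPM) and stood at 10.1 and 8.62 CPM in the ribavirin pair. Ifi47 was higher with OVA in T cells (68.7, 121, 77.1 and 126 CPM) and lower in neutrophils (283, 133, 161 and 149 CPM). Gbp9 was 29.6, 41.7, 29 and 47.5 CPM in T cells and 34.9, 20.9, 25.9 and 17.6 CPM in neutrophils.

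Other targets of interferon gamma, from 14 of 15 symbols found, had 25 higher and 28 lower of 123 (20.3% and 22.8%) in the Vehicle pair, beside 13.5% and 4.67% of all combinations, and 8 higher and 26 lower of 123 (6.5% and 21.1%) in the ribavirin pair, beside 11.0% and 2.8%, with median log2 ratios of -0.32 and -0.33. The immunoproteasome subunits Psmb8 and Psmb9 were lower with OVA in T cells, in which the 8 GTPases were higher, at 738, 293, 680.1 and 302 and 261, 144, 257 and 163 CPM. The surface protein gene Ly6a was 727, 596, 664 and 537 CPM in T cells and 2125, 807, 1957 and 800.1 CPM in plasma cells. The type I interferon targets had 45 higher and 4 lower of 124 (36.3% and 3.23%) and 22 higher and 11 lower of 124 (17.7% and 8.87%) beside the same shares, with medians of 0.78 and 0.25. Rsad2 was 8.62, 67, 11.7 and 48.5 CPM and Oasl2 8.51, 43.5, 11.3 and 28.2 CPM in T cells, higher with OVA in both pairs, whereas Isg15 was 109, 89.3, 109 and 79.7 CPM. In neutrophils Rsad2 was higher with OVA as well (382, 1067, 377 and 571 CPM) while Isg15 was lower (1160.3, 466, 1019.8 and 350.4 CPM).

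Genes of the inflammasomes that GBPs act on had 16 higher and 9 lower of 64 (25% and 14.1%) in the Vehicle pair, beside 13.5% and 4.67% of all combinations, and 1 higher and 4 lower of 64 (1.56% and 6.25%) in the ribavirin pair, beside 11.0% and 2.8%. The sensor Nlrp3 was 580.5, 1711, 974 and 398 CPM in neutrophils, Casp4, the caspase that senses cytosolic lipopolysaccharide, 161, 448, 214 and 204 CPM, and the adaptor Pycard 51.1, 18.1, 36.8 and 28 CPM there and 260.2, 139, 248 and 130.1 CPM in macrophages. Genes of dissociation stress, which tissue digestion can induce, had 29 higher and 3 lower of 137 (21.2% and 2.19%) and 12 higher and 10 lower of 137 (8.76% and 7.3%) beside the same shares. In T cells Dusp1 was 353, 1070.1, 389.7 and 702 CPM, Junb 2953, 4739, 2949.7 and 3984 CPM and Fos 551, 778, 608 and 531 CPM, so that Dusp1 and Junb were higher in T cells of both OVA libraries, as the GTPases were. Their part in the GTPase levels was not tested.

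All 13934 genes with at least 200 UMIs were ordered by the correlation of their log2 level with the mean of the 8 GTPases over the 44 points. The highest were Ifit3 (Pearson r 0.88), Rtp4 (0.87), Cdkn1a, Xaf1, Eno1 (each 0.84), Gch1, Zfand3, Oas3, Ifih1 and Zbtb7b (each 0.83). Of these, Ifit3 and Rtp4 are on the list of type I interferon targets. When the mean of each class had been subtracted, which leaves the differences between libraries, the 10 highest included Gbp4 (0.75), Ifi47 (0.74), Tap1 (0.73), Samhd1 and Relt (each 0.71), Ifih1 and Tap2 (each 0.70), Setdb2 (0.67) and Ccnd2 (0.65). The first 2 of these are family members, and Tap1 and Tap2 encode the peptide transporter of antigen presentation. The points share libraries and depth, and these values are descriptions.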

How the data were processed

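Leukocytes from nasal mucosa were profiled in 4 libraries, 1 for each group, so each group has 1 sample. Groups were taken from the treatment given in the sample labels. The deposited matrices hold whole counts of UMIs for each gene and barcode, which the authors made with Cell Ranger 5.0.0 on mm10 per the file headers and the submitters' processing notes. Counting by 3′ tag leaves a gene with a near-identical copy uncertain. Of the words of 31 bases in the last 300 bases of the transcripts, 17.2% for Irgm1, 8.05% for Gbp3 (in Gbp7), 3.1% for Gbp5 and 2.19% for Iigp1 (in Gm4951) also occurred in other genes, and 0 for the other 4.

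Barcodes with at least 500 UMIs, at least 200 genes and under 10% mitochondrial UMIs were kept. Doublets were scored within each library against simulated pairs of cells and marked above the minimum between the modes of the score, or above 0.25 where that marked too few (Vehicle-OVA), which removed 5.36, 2.1, 3.34 and 0.646% of cells. The rates expected from the number of deposited barcodes were 11.3, 7.66, 8.56 and 4.12%, so fewer cells were removed than expected in every library. For clustering (2000 variable genes without the GTPases and interferon lists, 30 principal components, 15 neighbours, Leiden resolution 1) the tools were Python 3.11.15, scikit-learn 1.9.0, leidenalg 0.10.2 and scipy 1.17.1. Clusters were named from listed markers. The doublet and naming rules were settled after clusterings, and the GTPase levels of their clusters, had been seen (4 and 3 rules tried); an earlier rule of each kind was kept as an alternative. UMIs were summed by class and library, with exact Poisson intervals for levels, exact conditional binomial intervals for ratios and a 2-fold rule for counts. With 1 library per group no test between groups was possible. In simulated counts with counting error alone, which the intervals assume, they held the true ratio in 95.5 to 95.9% of genes. Such counts hold no spread between cells or mice, so this check says nothing about that spread.

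The 8 genes, the lists and the markers were chosen with earlier results of these data known, so their patterns are not independent evidence. The genes named were the 8 in every result, all genes of the interferon gamma ligand, receptor and signalling lists, the 3 with the most UMIs of every other list, the 10 most alike by correlation and the 3 clusters with the highest summed level, apart from results that are not reported here. Other clusters, and the genes that lead them, were named after their values were seen. Gene positions came from GENCODE M21 on GRCm38, in which 98.7% of the deposited identifiers were found, and promoters from RefSeq on GRCm38.p6. Alternatives covered the mitochondrial limit, the cell filter, doublets, clustering, naming, scaling, the fold and the UMI minimum.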

Additional observations from a re-analysis of the deposited data

Results flagged for a closer look

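In 7 results within a class or cluster the OVA library lay on one side of its partner under vehicle and on the other side under ribavirin, each beyond counting error. The sums among them contain the single genes, and the sum over all cells, given above, met the same rule. The share of all genes and classes that met it was not taken, so the count says nothing particular about these genes. These differences between pairs were not tested. In B cells the log2 ratio of Gbp2 was -0.77 under vehicle and 0.64 under ribavirin, and that of the sum was -0.69 and 0.43. With Gbp2 UMIs subtracted in proportion to S100a8 and S100a9, at the ratio of neutrophils, Gbp2 of B cells stood at 41.2 CPM in Vehicle and 8.7 in Vehicle-OVA, a ratio of 0.211, and the ratio under ribavirin was 1.75. Macrophage markers in B cells summed to 4579.8, 1187, 1975 and 942 CPM, and their part was not tested. In conventional dendritic cells Iigp1 was at -0.32 and 0.45. In group 2 innate lymphoid cells Igtp was at 1.21 and -1.08, Iigp1 at 1.45 and -2.23 and the sum at 0.61 and -0.74. In the Foxp3-led cluster Irgm1 was at 0.32 and -0.46.

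In 2 cell types too small to enter the comparisons Iigp1 was above its level in the compared classes. Over the 4 libraries together it stood at 637 CPM (602 to 673, from 1267 UMIs) in endothelial cells and at 447 CPM (416 to 479, from 797 UMIs) in stromal cells. Each group has 1 library, so none was compared with others of its group.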

How the results depend on the processing

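No paired analysis was possible because each group is 1 library. Intervals cover counting error only and not differences between mice. The 8 GTPase genes were followed through 152 combinations of a result and a setting. Of these, 103 stayed within the interval or within 1.5 times the value, 48 moved further and 1 changed direction. Only the sums over all cells have a direction, and the rest of the 152 were counts, which have none. The class ratios were not among the 152. Some class ratios changed direction, for example in 3 of 9 settings for NK cells in Ribavirin over Vehicle. Macrophages in Ribavirin-OVA over Vehicle-OVA did so in 3 of 10. The summed ratios of neutrophils and T cells kept their direction in every setting in both OVA pairs. The cause of each move was not tested, beyond fewer cells or combinations where a filter was stricter.

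The log2 ratio of the summed level over all cells was 0.18 for Vehicle-OVA over Vehicle. It was 0.24 with a mitochondrial limit of 5%, 0.16 with 20%, 0.17 with doublets marked at the expected rate, 0.020 as the mean of single-cell CPM and 0.25 with classes weighted equally. For Ribavirin-OVA over Ribavirin it was -0.14, and -0.088 at 5% mitochondrial UMIs, -0.44 relative to the median of all genes, -0.24 as the mean of single cells and 0.12 with equal weights, where the direction changed. For Ribavirin over Vehicle it was -0.17, and -0.19 at 20%, -0.21 with doublets at the expected rate, -0.13 relative to all genes, -0.10 as the mean of single cells and -0.059 with equal weights. For Ribavirin-OVA over Vehicle-OVA it was -0.50, and -0.83 relative to all genes, -0.36 as the mean of single cells and -0.19 with equal weights.

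The counts of combinations at least 2-fold higher and lower moved too. At 5% mitochondrial UMIs only 48 combinations in 6 classes were tested, not 84. Of these, 18.8% were higher and 10.4% lower in the Vehicle pair (11.6% and 8.39% of all combinations). In the ribavirin pair 14.6% were higher and 2.08% lower (9.97% and 2.84%), and in Ribavirin-OVA over Vehicle-OVA 0% and 10.4% (6.77% and 2.28%). At 1.5-fold, other UMI minimums, clustering or naming no share of all combinations was taken. For Vehicle-OVA over Vehicle, the 18 higher became 9 at 5% mitochondrial UMIs, 8 with doublets kept, 7 relative to all genes, 11 with at least 200 UMIs and 36 at 1.5-fold, and the 11 lower became 5 at 5%, 7 at resolution 0.5 and 18 at 1.5-fold. For Ribavirin-OVA over Ribavirin, the 5 higher became 12 with doublets kept, 8 with libraries clustered separately, 3 relative to all genes and 21 at 1.5-fold, and the 3 lower became 1 at 5%, 0 when cells needed 1000 UMIs and 500 genes, 7 with doublets kept, 5 with doublets at the expected rate, 1 at resolution 0.5, 10 relative to all genes, 1 with at least 200 UMIs and 13 at 1.5-fold. For Ribavirin over Vehicle, the 0 higher became 1 with doublets at the expected rate, 1 with no filter on low counts and 4 at 1.5-fold, and the 0 lower became 1 with doublets kept and 5 at 1.5-fold. For Ribavirin-OVA over Vehicle-OVA, the 6 higher became 0 at 5%, 2 with at least 200 UMIs and 12 at 1.5-fold, and the 11 lower became 5 at 5%, 7 with the first naming rule, 6 with at least 200 UMIs and 19 at 1.5-fold. With the Siglecf-led cluster counted as neutrophils each count stayed within 1.5 times (18 higher and 9 lower for Vehicle-OVA over Vehicle). This count, the first naming rule and the expected doublet rate were chosen after seeing the data.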

Other observations

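The unnamed cluster 41, led by Coch and Ascl3 with Foxi1 and Cftr, genes of ion-transporting epithelial cells, held 104 cells (median 1285 UMIs) and had a summed GTPase level of 663 CPM (607 to 722). It rested on few cells, since the 7 cells of Vehicle-OVA and 22 of Ribavirin (median 9702 and 11502 UMIs) supplied 377 of its 525 GTPase UMIs, and by library the level was 845, 1522, 468 and 269 CPM. In the unnamed cluster led by Siglecf, Iigp1 stood at 4.2, 0.974, 3.04 and 3.66 CPM, a ratio of 0.232 (0.00571 to 1.38) for Vehicle-OVA over Vehicle and 3.75 (0.42 to 177) for Ribavirin-OVA over Vehicle-OVA. In the immature neutrophils of cluster 44, led by Camp and Ngp, Iigp1 had 2.8 CPM, against 4.44 CPM in cluster 0.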
